A study of Mus musculus with 12 samples.

Results

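Collagen genes were followed through 12 RNA sequencing libraries of mouse oocytes. They were chosen by name, as every protein-coding gene of the count table whose symbol reads Col, a number, the letter a and a number. By this rule 44 genes were found among 55401 genes in the table, of which 21897 were protein coding. They fell into 11 fibrillar, 6 basement membrane, 6 beaded filament, 1 anchoring fibril, 3 short chain network, 9 FACIT, 4 transmembrane and 2 multiplexin collagens, with 2 others.

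The study asked what dorsomorphin (DM), a small-molecule inhibitor of the kinase AMPK, does to dormant follicles. Ovaries of F1 mice (C57Bl/6j x CBA/J in the labels, C57BL/6JRj x CBA/JRj in the methods) aged 7 to 8 days were cultured for 5 days with DM or with its solvent DMSO, then fixed in paraformaldehyde, embedded in paraffin and stained. Oocytes were cut out by laser capture, and 200 were pooled for each library. The 4 groups of 3 libraries were oocytes of primordial follicles (flat pregranulosa cells around the oocyte) and of primary follicles (cuboidal granulosa cells), each with DMSO (the control, which GEO's labels call sham) or DM, and all 4 groups came from ovaries of the same cross.

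Collagens are secreted as trimers of chains that wind into a helix. Type I and III chains build the fibrils of connective tissue, type IV chains build the network of basement membranes, type VI chains form beaded filaments, and FACIT collagens sit on the surface of fibrils. In the ovary, a basement membrane surrounds each follicle outside its granulosa cells, and fibroblast-like stromal cells around it make fibrillar collagen.

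Libraries held 14034586 to 42639326 counts. A count of 0 allows up to 3 counts, which was 0.0704 to 0.214 CPM (counts scaled to a library of 1000000) depending on depth, and this limit covers counting error only. Scaling factors that account for composition (TMM, trimmed mean of M values) ran from 0.261 to 2.87. Primary control 3 and all 3 primary DM libraries had factors below 1 and the other 8 libraries had factors above 1. TMM scaling therefore raises levels in these 4 libraries and lowers them in the other 8. The factors furthest from 1 were in primary DM 2 (0.261) and primordial control 1 (2.87). Values are given on more than 1 scale where the order changes. Of 15 oocyte markers, the germ cell helicase *Ddx4* and the receptor *Kit* passed 3 counts in all 12 libraries. The summed oocyte marker level was 27.8 to 1279 CPM in primordial control, 6.84 to 1074 CPM in primordial DM, 34.7 to 1427 CPM in primary control and 56.1 to 1115 CPM in primary DM libraries, so the labelled cell type was weakly marked in some libraries of every group.

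Markers of other cells were present. Of 12 stroma and fibroblast markers, 5 passed 3 counts in all 12 libraries and *Mfap5* in none. Their summed level was 1627 to 2552 CPM in primordial control, 1388 to 1863 CPM in primordial DM, 366.9 to 3658 CPM in primary control and 590.7 to 6935 CPM in primary DM libraries. Of 12 granulosa markers, 4 passed in all 12 libraries and *Fshr*, *Hsd17b1* and *Cyp19a1* in none, and the sum was 981.6 to 3213, 274.3 to 2199, 1778 to 8046 and 1208 to 11210 CPM in the same order of groups. Pericyte and smooth muscle markers (7 genes, *Cnn1*, *Rgs5* and *Des* never above 3 counts) summed to 0.198 to 198.1 CPM in primordial control, 0.475 to 525.2 CPM in primordial DM, 0.289 to 367.1 CPM in primary control and 98.6 to 325.3 CPM in primary DM libraries. Endothelial markers (7 genes, *Tek* and *Emcn* never above 3 counts) summed to 0.198 to 8.03, 0.285 to 608.8, 0.713 to 35.95 and 1.85 to 860.6 CPM, and 8 ovarian surface epithelium markers to 3.86 to 257.7, 263.6 to 2549, 0.321 to 25.5 and 0.969 to 682.9 CPM, in that order. The part of these cells in the collagen counts was not tested. Some of the highest sums rested mostly on 1 gene of a list. In primary DM 3 the endothelial marker *Tie1* had 30177 counts, while *Pecam1*, *Cdh5* and *Vwf* had 0. In primordial DM 2 the endothelial marker *Kdr* had 21234 counts, and in primary DM 2 the granulosa marker *Foxl2* had 474295. A high sum thus need not stand for the whole list. In bulk pools, fewer cells of a type and less RNA per cell cannot be told apart.

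The start regions of 6 collagen genes are shown here, because the type IV genes among them lie head to head with a partner and yet differ from it in counts. Windows from 250 bases before to 50 bases after the RefSeq transcription start (GRCm38.p6) were found for 35 of the 44 genes, *Col1a1* not among them. Each window is written 5′ to 3′ on the strand of its gene, and capitals mark 3 motifs found on either strand. The TATA box was searched as the letters TATAAA. The motif named for its letters was searched as CCAAT, and the GC box was searched as GGGCGG. *Col1a2* and *Col3a1* encode fibrillar chains, and the other pairs encode type IV chains. The windows are Col1a2 chr6:4505368-4505667 (plus), Col3a1 chr1:45311288-45311587 (plus), Col4a1 chr8:11312777-11313076 (minus), Col4a2 chr8:11312555-11312854 (plus), Col4a5 chrX:141475169-141475468 (plus) and Col4a6 chrX:141474027-141474326 (minus).
Col1a2: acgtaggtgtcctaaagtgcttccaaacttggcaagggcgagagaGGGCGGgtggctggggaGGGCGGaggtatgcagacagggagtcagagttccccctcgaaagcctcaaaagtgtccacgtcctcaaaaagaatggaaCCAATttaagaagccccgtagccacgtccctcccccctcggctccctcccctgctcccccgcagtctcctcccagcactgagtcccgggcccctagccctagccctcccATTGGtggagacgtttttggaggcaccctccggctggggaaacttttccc
Col3a1: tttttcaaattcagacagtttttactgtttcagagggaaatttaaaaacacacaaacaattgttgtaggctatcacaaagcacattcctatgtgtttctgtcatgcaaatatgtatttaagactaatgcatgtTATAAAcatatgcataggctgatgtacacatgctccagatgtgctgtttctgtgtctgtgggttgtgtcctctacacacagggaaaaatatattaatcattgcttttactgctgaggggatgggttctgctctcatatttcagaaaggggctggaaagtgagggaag
Col4a1: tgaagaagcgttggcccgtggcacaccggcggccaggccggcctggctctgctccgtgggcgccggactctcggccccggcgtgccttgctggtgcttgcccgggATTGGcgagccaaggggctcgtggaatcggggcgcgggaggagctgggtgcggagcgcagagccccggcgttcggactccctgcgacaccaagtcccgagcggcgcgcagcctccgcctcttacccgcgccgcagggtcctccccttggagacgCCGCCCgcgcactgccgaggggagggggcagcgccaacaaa
Col4a2: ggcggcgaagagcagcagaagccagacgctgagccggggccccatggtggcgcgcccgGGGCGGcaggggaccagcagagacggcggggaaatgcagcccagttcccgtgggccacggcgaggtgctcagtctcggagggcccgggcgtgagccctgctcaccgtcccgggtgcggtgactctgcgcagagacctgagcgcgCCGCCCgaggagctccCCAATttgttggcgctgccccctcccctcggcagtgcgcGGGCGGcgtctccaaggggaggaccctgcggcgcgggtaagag
Col4a5: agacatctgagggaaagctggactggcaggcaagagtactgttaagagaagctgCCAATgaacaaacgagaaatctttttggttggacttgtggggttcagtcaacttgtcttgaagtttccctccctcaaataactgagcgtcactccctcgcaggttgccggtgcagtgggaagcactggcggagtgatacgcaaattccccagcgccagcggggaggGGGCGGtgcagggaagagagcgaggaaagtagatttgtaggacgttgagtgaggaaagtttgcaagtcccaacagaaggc
Col4a6: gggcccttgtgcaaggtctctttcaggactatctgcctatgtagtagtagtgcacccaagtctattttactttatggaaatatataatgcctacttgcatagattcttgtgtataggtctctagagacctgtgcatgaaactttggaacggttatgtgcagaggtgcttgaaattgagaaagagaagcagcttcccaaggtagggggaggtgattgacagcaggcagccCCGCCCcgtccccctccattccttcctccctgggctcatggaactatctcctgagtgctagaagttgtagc

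The type IV genes lie head to head in pairs. *Col4a1* and *Col4a2* on chromosome 8 are read in opposite directions from starts 21 bases apart (chr8:11312805-11312826), so that their first exons overlap and their windows above share sequence. *Col4a4* and *Col4a3* on chromosome 1 start 72 bases apart, and *Col4a6* and *Col4a5* on chromosome X start 1309 bases apart. Among these windows, the TATA box letters occur in *Col3a1*, and GC box letters in *Col1a2* and in the *Col4a1*, *Col4a2*, *Col4a5* and *Col4a6* windows. Over all 38 collagen windows, 13.2% held the TATA box letters against 13.6% of 32851 windows of all genes, 34.2% against 37.4% held CCAAT, and 60.5% against 35.7% held the GC box letters. The median GC content was 59.8% for collagen windows and 52.7% for all windows. The motifs were matched as letters only, and GC box letters are more frequent where GC content is high.

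Reads of collagen genes made up 0.275 to 1.54% of all counts. The lowest share was in primordial DM 1 and the highest in primary DM 1, followed by primary control 3 with 0.884%. Between 13 and 28 of the 44 genes passed 3 counts in a library, with the fewest in primary DM 3 and the most in primordial control 1. In all 12 libraries, 11 collagen genes (25.0%) passed 3 counts, against 8.87% of protein-coding genes. In at least 6 libraries it was 18 of 44 (40.9%) against 26.5%. The 11 genes were *Col1a1*, *Col1a2*, *Col3a1*, *Col5a1*, *Col4a1*, *Col4a2*, *Col4a5*, *Col6a1*, *Col6a2*, *Col6a3* and *Col12a1*, and they held 94.6% of all collagen counts. A further 7 (*Col5a2*, *Col6a5*, *Col6a6*, *Col15a1*, *Col16a1*, *Col18a1* and *Col25a1*) passed in 6 to 11 libraries and held 4.49%, and 18 passed in 1 to 5 libraries and held 0.891%. *Col2a1* and *Col14a1*, each with 2 reads in 1 library, never passed, and *Col5a3*, *Col9a1*, *Col10a1*, *Col19a1*, *Col22a1* and *Col28a1* had no read in any library.

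**Figure D1:**
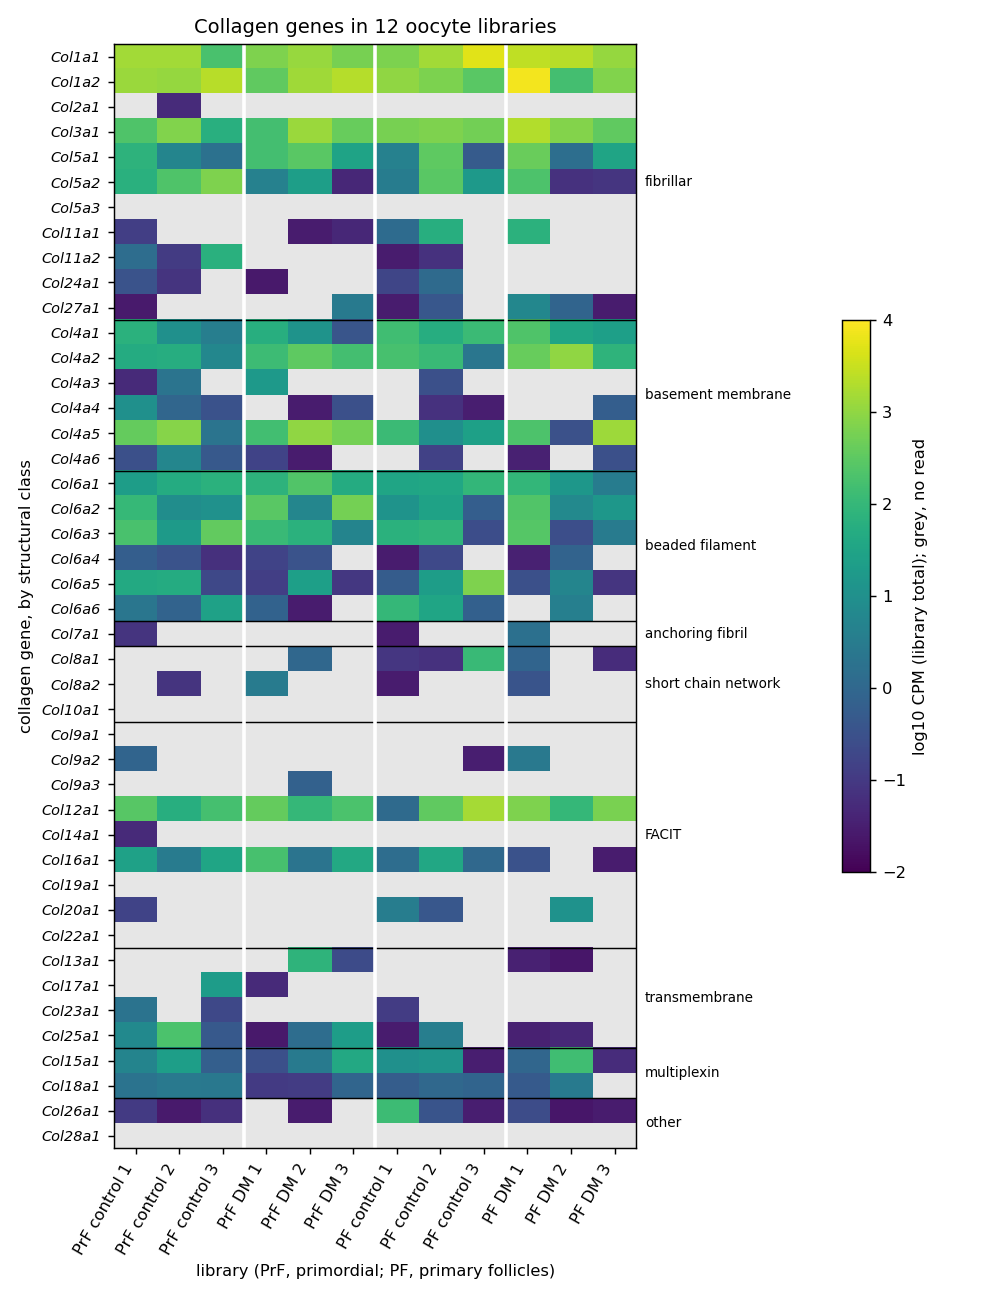
Level of each of the 44 collagen genes (rows, by structural class) in each of the 12 libraries (columns; PrF, primordial and PF, primary follicles), as log10 CPM of the library total, with grey where no read was counted. *Col1a1*, *Col1a2* and *Col3a1* are bright in all 12 columns, and 6 rows are grey throughout.

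Per kilobase of exon, on TMM-scaled CPM, the highest medians over 12 libraries were *Col1a1* (115.1), *Col1a2* (74.4) and *Col3a1* (45.5), the fibrillar chains of types I and III. They were followed by *Col4a5* (17.9), *Col4a2* (15.1), *Col12a1* (10.7), *Col6a1* (9.83) and *Col4a1* (4.20). Exon length joined all annotated exons of a gene, so the order between genes depends on the annotation. *Col1a1* was the highest collagen per kilobase in 8 libraries and *Col1a2* in primordial control 3, primordial DM 3 and primary DM 1. *Col4a5* was the highest in primary DM 3. Ranked by counts among all protein-coding genes of a library, *Col1a2* stood between place 2 (in primary DM 1) and place 762, and *Col1a1* between place 30 and place 1145.

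Fibrillar collagens held most of the collagen counts, between 49.0 and 86.1% (median 71.4%). *Col1a1* (chr11:94936224-94953042), the alpha 1 chain of type I collagen, had 57045, 55732 and 2892 counts in primordial control, 26140, 40469 and 12453 in primordial DM, 22215, 20979 and 168895 in primary control and 71671, 94147 and 39040 in primary DM libraries 1, 2 and 3. Control and DM libraries overlapped at both stages, and primary control 3 was the highest. *Col1a2* (chr6:4504814-4541544), the partner chain of the same trimer, had 46448, 42708 and 34340 counts in primordial control, 12847, 49463 and 44387 in primordial DM, 34925, 9405 and 8955 in primary control and 217214, 7009 and 25122 in primary DM. Here primary DM 1 alone held 40.97% of the gene's summed CPM, while *Col1a1* peaked in another library.

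*Col3a1* (chr1:45311538-45349706), the chain of type III collagen found with type I in soft tissue, had 8235, 26614 and 932 counts in primordial control, 6134, 43215 and 8336 in primordial DM, 20437, 9890 and 16513 in primary control and 55528, 32906 and 12059 in primary DM. It overlaps an exon of *Gm47302* on the same strand, and how reads in the overlap were counted is not given in the sources used here. Its lowest library, primordial control 3, was also the lowest for *Col1a1*. *Col5a1*, a type V chain that mixes into type I fibrils, had 2934, 203 and 26 counts in primordial control, 6241, 10051 and 647 in primordial DM, 145, 4512 and 16 in primary control and 11641, 62 and 1092 in primary DM. *Col5a2*, its partner chain, had 2473, 8391 and 10250 counts in primordial control, 168, 795 and 1 in primordial DM, 111, 4126 and 511 in primary control and 5678, 3 and 3 in primary DM. In primordial follicles the 3 DM libraries were all below the 3 controls for *Col5a2*, and the primary groups overlapped.

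*Col27a1*, a fibrillar chain of cartilage, was counted at 1, 0 and 0 in primordial control, 0, 0 and 60 in primordial DM, 1, 6 and 0 in primary control and 161, 37 and 1 in primary DM. Most of its reads came from 3 DM libraries. The remaining fibrillar genes with reads, *Col2a1*, *Col11a1*, *Col11a2* and *Col24a1*, ranged from 0 counts to 2000 counts (*Col11a1*, primary DM 1), and each was at 0 in at least 6 libraries.

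Basement membrane collagens held 0.318 to 33.2% of collagen counts (median 13.7%), lowest in primordial control 3 and highest in primary DM 3. *Col4a1* (chr8:11198423-11312826), which with *Col4a2* forms the common trimer of basement membranes, had 2635, 371 and 57 counts in primordial control, 2192, 428 and 8 in primordial DM, 4819, 758 and 3780 in primary control and 6060, 1460 and 844 in primary DM. *Col4a2* (chr8:11312805-11449287) had 1886, 2031 and 91 counts in primordial control, 4996, 11180 and 3416 in primordial DM, 6103, 1642 and 71 in primary control and 10974, 42400 and 2792 in primary DM. In primordial follicles the 3 DM libraries lay above the 3 controls for *Col4a2*, on counts as on every scale used, and for *Col4a1* the groups overlapped. The exons of the 2 genes overlap on opposite strands, and whether the counting used the strand is not given in the sources used here. The same limit holds for other collagen genes with such overlaps. Among them are *Col4a2* (also with *Gm15419*), *Col5a1* (*2810430I11Rik* and *Gm13372*), *Col6a6* (*Gm38314*) and *Col15a1* (*Gm12426*).

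*Col4a5* (chrX:141475385-141689234), a chain of the type IV network best known from kidney basement membrane, ranged from 13 to 45902 counts. It had 14824, 30581 and 31 counts in primordial control, 5950, 35441 and 12029 in primordial DM, 4179, 133 and 779 in primary control and 5736, 13 and 45902 in primary DM. Control and DM libraries overlapped at both stages, and primary DM held both the lowest and the highest library. *Col4a6* (chrX:141165403-141474076), the neighbouring chain, had 11, 211 and 7 counts in primordial control, 6, 1 and 0 in primordial DM, 0, 2 and 0 in primary control and 1, 0 and 10 in primary DM. *Col4a4* had 386, 36 and 5 counts in primordial control, 0, 1 and 6 in primordial DM, 0, 1 and 1 in primary control and 0, 0 and 22 in primary DM. Both had their highest count in a primordial control library, far under the highest of *Col4a5*. *Col4a3* passed 3 counts in 3 libraries, with 665 in primordial DM 1, 74 in primordial control 2 and 4 in primary control 2.

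Beaded filament collagens held 0.507 to 17.3% of collagen counts. Their main trimer joins the products of *Col6a1*, *Col6a2* and *Col6a3*. *Col6a1* had 845, 1854 and 1024 counts in primordial control, 2827, 8092 and 1011 in primordial DM, 1129, 523 and 2924 in primary control and 2561, 644 and 115 in primary DM. *Col6a2*, its neighbour on chromosome 10, had 3925, 332 and 163 counts in primordial control, 10873, 198 and 11621 in primordial DM, 405, 400 and 19 in primary control and 6469, 285 and 530 in primary DM. *Col6a3* had 7007, 705 and 5388 counts in primordial control, 4424, 2348 and 109 in primordial DM, 2311, 1163 and 8 in primary control and 7345, 12 and 110 in primary DM. The highest count of each of the 3 genes stood in a different library.

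The alternative type VI chains form a cluster on chromosome 9. *Col6a5* had 1669, 1849 and 3 counts in primordial control, 5, 871 and 2 in primordial DM, 19, 303 and 21210 in primary control and 8, 233 and 3 in primary DM. Primary control 3 thus held most of its reads. *Col6a6* had 86, 30 and 404 counts in primordial control, 30, 1 and 0 in primordial DM, 3412, 469 and 22 in primary control and 0, 162 and 0 in primary DM. Its reads peaked in primary control 1 and were at 0 in 3 DM libraries. *Col6a4* stayed between 0 and 34 counts.

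Among FACIT collagens, 9 genes with 0.199 to 20.4% of collagen counts, *Col12a1* led. It encodes the chain of type XII collagen, which bridges fibrils, and had 10589, 2149 and 2580 counts in primordial control, 14713, 3523 and 4160 in primordial DM, 41, 4747 and 47715 in primary control and 19289, 4216 and 21863 in primary DM. The primary control group contained both the lowest and the highest of the 12 libraries. *Col16a1* had 1020, 114 and 512 counts in primordial control, 6748, 70 and 874 in primordial DM, 47, 561 and 33 in primary control and 9, 0 and 1 in primary DM. All 3 primary DM libraries were below each of the other 9. *Col9a2*, *Col9a3* and *Col20a1* had reads above 3 counts in 1 to 4 libraries, with at most 486 (*Col20a1*, primary DM 2).

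The multiplexins *Col15a1* and *Col18a1* are collagens of vascular and epithelial basement membrane zones. *Col15a1* had 188, 836 and 10 counts in primordial control, 11, 99 and 878 in primordial DM, 343, 182 and 1 in primary control and 27, 6305 and 2 in primary DM. *Col18a1* had 73, 101 and 39 counts in primordial control, 4, 4 and 19 in primordial DM, 20, 15 and 27 in primary control and 14, 119 and 0 in primary DM. The 3 primordial controls were above the 3 primordial DM libraries for *Col18a1* on the library-size scale, but not on the TMM scale. *Col25a1*, a transmembrane collagen of neurons and muscle, had 260, 7501 and 7 counts in primordial control, 1, 49 and 451 in primordial DM, 1, 53 and 0 in primary control and 1, 2 and 0 in primary DM. Primordial control 2 held most of its reads.

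The rare genes were seen mostly in 1 library each. *Col8a1*, a short chain collagen, had 3656 counts in primary control 3, 35 in primordial DM 2, 24 in primary DM 1 and 3 or fewer elsewhere. *Col26a1* had 4474 counts in primary control 1 and at most 7 elsewhere, *Col7a1*, the chain of anchoring fibrils, had 46 in primary DM 1 and at most 3 elsewhere, and *Col13a1* had 2723 in primordial DM 2 and at most 5 elsewhere. For the 18 genes that passed 3 counts in 1 to 5 libraries, the highest library held a median of 86.3% of the gene's CPM. Grouping genes by few libraries favours a high share, and no share over all genes grouped in this way was computed. For the 11 genes present in all 12 libraries the highest library held a median of 30.5% (range 26.0 to 43.7%). The median was 37.1% for the 1942 protein-coding genes present in all 12.

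Chains that are assembled into 1 trimer did not keep a fixed ratio of counts per kilobase of exon. *Col1a1* to *Col1a2*, the chains of type I collagen, had ratios of 2.33, 2.47 and 0.160 in primordial control, 3.85, 1.55 and 0.531 in primordial DM, 1.20, 4.22 and 35.7 in primary control and 0.625, 25.4 and 2.94 in primary DM, with a median of 2.40. *Col1a1* was the higher chain in 9 of 12 libraries. This order depends on the exon lengths used, 6563 bases for *Col1a1* and 12426 bases for *Col1a2*. On counts alone *Col1a1* was the lower chain in primordial DM 2 (40469 against 49463) and in primary control 1 (22215 against 34925). *Col4a1* to *Col4a2* had ratios of 1.24, 0.162 and 0.555 in primordial control, 0.389, 0.0340 and 0.00208 in primordial DM, 0.700, 0.409 and 47.2 in primary control and 0.490, 0.0305 and 0.268 in primary DM. *Col4a2* was higher in 10 libraries, the exceptions being primordial control 1 and primary control 3.

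The span between lowest and highest ratio was 223.9-fold for the type I pair and 22730-fold for *Col4a1* to *Col4a2*. *Col6a1* to *Col6a2* ran from 0.165 to 292.5 and *Col6a3* to *Col6a1* from 0.00100 to 3.04. *Col4a5* exceeded *Col4a6* in all 5 libraries where both passed 3 counts, with ratios of 5.26 to 5448. These ratios use 2 genes of the same library, so scaling does not enter them. Depth still sets which chains pass 3 counts, and the extreme ratios rest on low counts. *Col4a1* had 8 counts in primordial DM 3, and *Col4a2*, *Col6a2* and *Col6a3* had 71, 19 and 8 in primary control 3. Ratios of other pairs of genes were not computed for comparison.

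**Figure D2:**
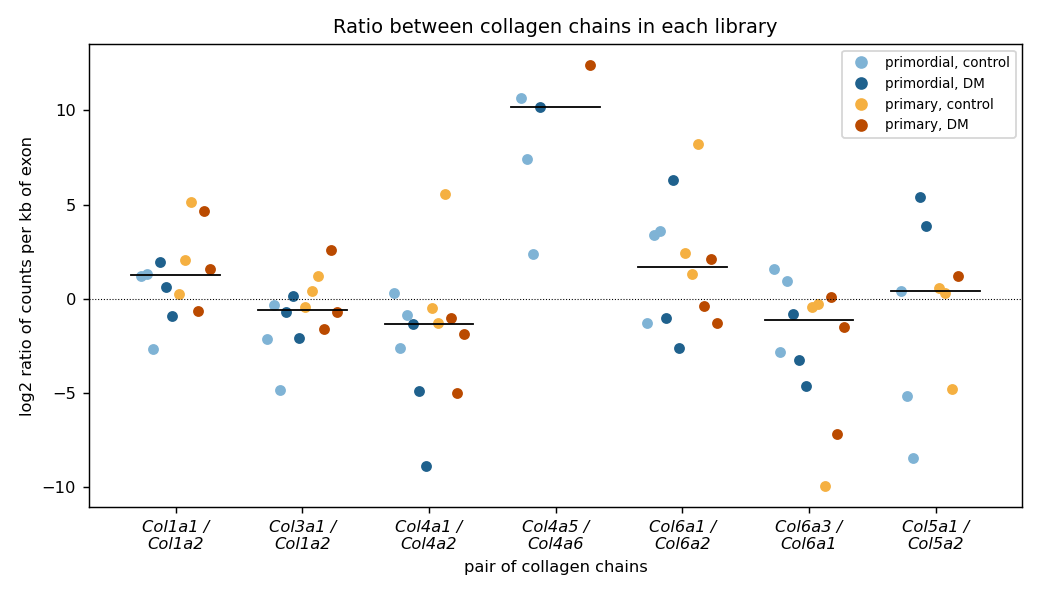
Ratio of counts per kilobase of exon between 2 collagen chains, on a log2 axis, with 1 point for each library in which both chains passed 3 counts, coloured by group, and a black line at the median. Points of each group are spread over several log2 units, and *Col4a1* to *Col4a2* reaches from 0.00208 (primordial DM 3) to 47.2 (primary control 3).

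Summed over the 44 genes, the library-size CPM was 4397 ± 481 (SD, n = 3) in primordial control, 4505 ± 1639 in primordial DM, 5420 ± 3028 in primary control and 8031 ± 6348 in primary DM. On this scale the libraries had 4300, 4920 and 3972 CPM in primordial control, 2749, 5993 and 4773 in primordial DM, 3091, 4327 and 8843 in primary control and 15360, 4469 and 4263 in primary DM. Primary DM 1 stood highest and also had the highest stroma marker sum (6935 CPM). Primary control 3, the next highest for collagen, had the lowest stroma marker sum on this scale (366.9 CPM). Within the list, its *Vim* count was 71 and its *Pdgfra* count 7589. On the TMM scale its stroma marker sum was 1320 CPM, above the 646.7 CPM of primordial control 1. The mean collagen sums on the TMM scale were 2424 ± 993, 3752 ± 1653, 11820 ± 17310 and 17540 ± 7540 CPM in the same order of groups. Of the primary controls, library 3 had 31800 CPM and the others 1941 and 1712 CPM, and without it the mean was 1826 CPM. All 3 primary DM libraries, at 25290, 17100 and 10230 CPM, were above the 6 primordial libraries on this scale and overlapped them on the library-size scale.

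By class, the summed TMM-scaled CPM of basement membrane collagens was 274.5 ± 323.5 in primordial control, 676 ± 414 in primordial DM, 295.1 ± 232.3 in primary control and 2898 ± 1357 in primary DM (SD, n = 3). As library-size CPM it was 477.5 ± 444.4, 814.8 ± 498.8, 257.7 ± 161.5 and 1090 ± 297. The 3 primary DM libraries exceeded the 3 primary controls on both scales, at 827.8 to 1413 against 148.8 to 443.2 as library-size CPM. Different genes carried these sums. *Col4a2* gave 42400 of the 43873 counts in primary DM 2, and *Col4a5* gave 45902 of the 49570 in primary DM 3. By library size, no tested type IV gene was without overlap between the primary groups. Fibrillar collagens overlapped between control and DM at both stages on both scales. No test was made on these sums, since the members had been chosen with earlier results known.

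**Figure D3:**
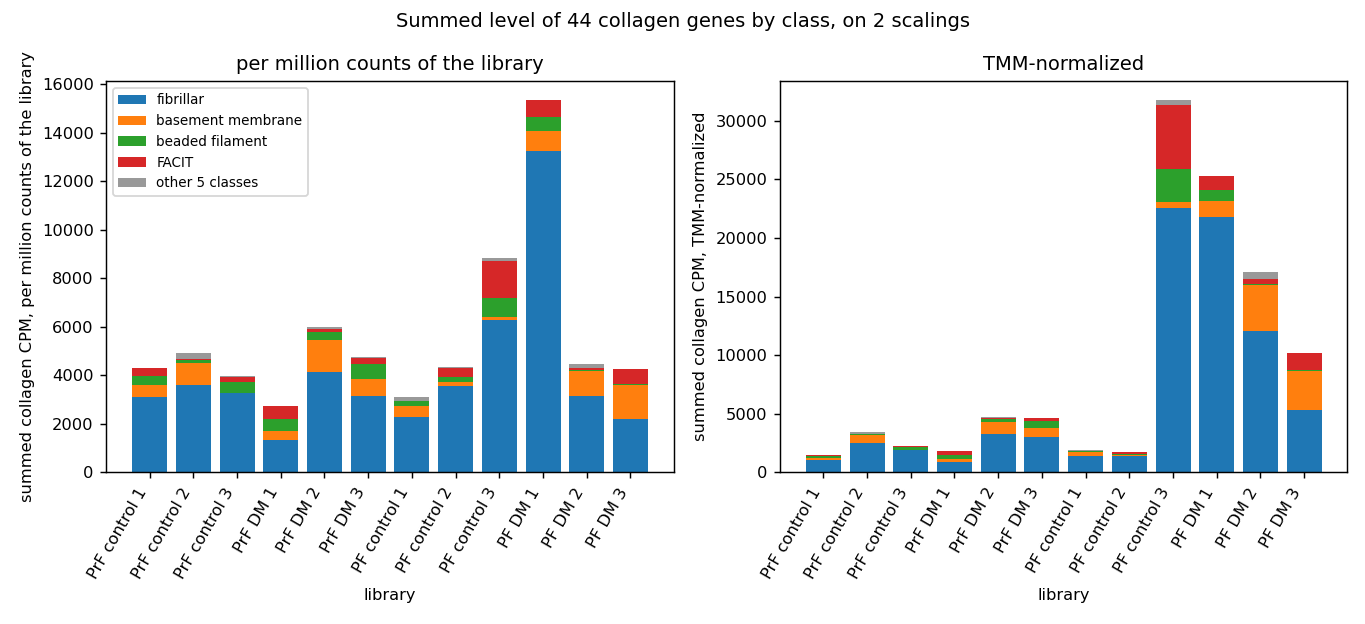
Summed level of the 44 collagen genes in each library (PrF, primordial and PF, primary follicles), stacked by class, as CPM of the library total (left) and TMM-normalized (right), on linear axes from 0. On the left primary DM 1 is highest with 15360 CPM, and on the right primary control 3 is highest with 31800 CPM.

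**Figure D4:**
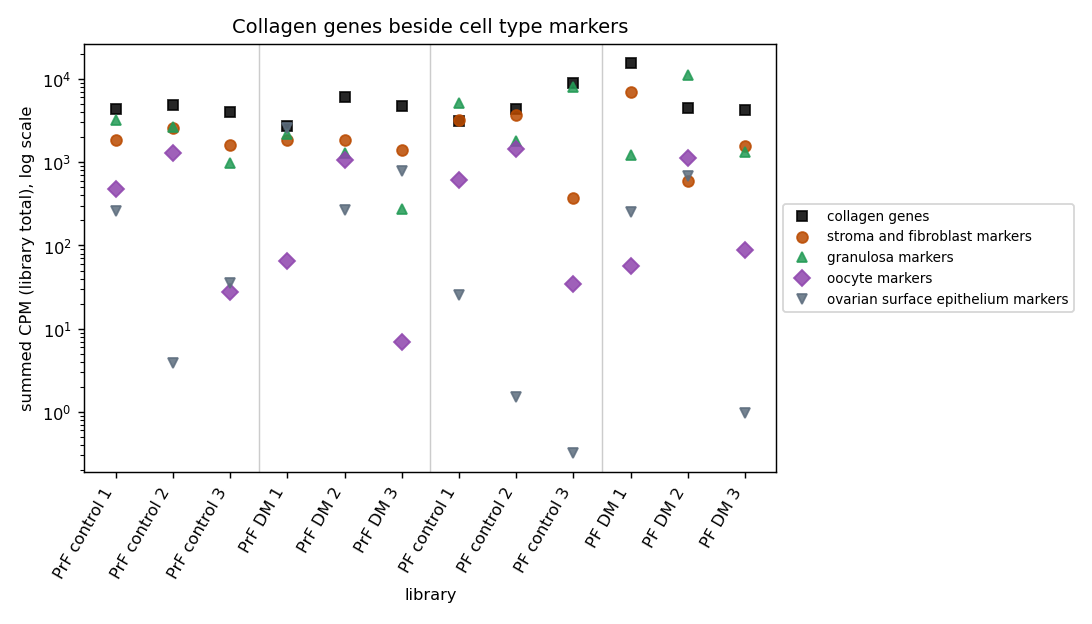
Summed CPM (library total, log axis) of collagen genes and of marker lists for stroma, granulosa cells, oocytes and ovarian surface epithelium in each library (PrF, primordial and PF, primary follicles). Collagen is highest in primary DM 1, where stroma markers reach 6935 CPM, and second in primary control 3, where stroma markers are at 366.9 CPM.

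The effect of DM was tested gene by gene in the whole table with edgeR's quasi-likelihood test, adjusted over all genes tested. In primordial follicles 21 collagen genes passed the filter on low counts. None had an adjusted p under 0.05 (0.0149% of 6699 genes did, which was 1 gene) and none an unadjusted p under 0.05 (7.33% of genes did). DESeq2 gave an adjusted p to 18 collagen genes and called 1, *Col27a1*, against 13.1% of the 5334 genes with an adjusted p. The only reads of *Col27a1* among the 6 libraries were 60 counts in primordial DM 3 and 1 in primordial control 1. Without overlap between the 3 DM and 3 control libraries on the TMM scale were 5 of 21, with *Col4a2*, *Col5a1* and *Col6a1* higher and *Col5a2* and *Col6a6* lower, against 12.7% of all genes tested. On the library-size scale *Col4a2* alone lay higher and 5 lay lower, against 13.0%. With DESeq2's size factors *Col4a2* and *Col5a1* lay higher and none lower, against 11.9%.

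The log2 fold change (DM against control) of *Col4a2* in primordial follicles was 3.03 (SE 2.84, adjusted p = 0.81), with TMM-scaled means of 19.9 ± 17.7 CPM in control and 166.7 ± 83.4 CPM in DM (SD, n = 3). It stayed between 2.499 and 3.99 when each library was left out in turn. This comparison was chosen after its values were seen, so a stable sign carries little weight. The type I chains were near 0, at 0.17 (SE 1.40, adjusted p = 0.98) for *Col1a1* and 0.33 (SE 1.16, adjusted p = 0.97) for *Col1a2*, and the sign of both turned with library-size scaling. *Col3a1* was at 1.22 (SE 1.75, adjusted p = 0.89), and between 0.19 (without primordial DM 2) and 3.13 (without primordial control 2). The smallest p-values belonged to *Col4a6* at -4.97 (SE 2.56, adjusted p = 0.66) and *Col6a6* at -4.97 (SE 3.04, adjusted p = 0.67). Leaving out 1 library moved *Col4a6* between -6.63 and -1.95 (without primordial control 2) and *Col6a6* between -8.54 and -1.94 (without primordial control 3). Standard errors of this size leave room for changes of several log2 units in either direction, and the median standard error over all genes was 2.84.

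In primary follicles 20 collagen genes were tested. None had an adjusted p under 0.05 (0% of 4181 genes did) and none an unadjusted p under 0.05 (12.2% of genes did). DESeq2 called *Col4a2*, *Col7a1* and *Col27a1*, 3 of 14 members given an adjusted p, against 22.1% of the 3284 genes given one. Of these, *Col7a1* rests on the 46 counts of primary DM 1. *Col4a2* and *Col6a2* were higher in all 3 DM libraries than in all 3 controls on the TMM scale and *Col16a1* was lower, 3 of 20 against 12.8% of all genes. On the library-size scale *Col16a1* was lower and none was higher, against 13.0% of all genes. With DESeq2's size factors *Col4a2*, *Col6a2* and *Col27a1* were higher and none was lower, against 12.2%.

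*Col4a2* had a log2 fold change of 4.46 (SE 3.44, adjusted p = 0.50) in primary follicles, with means of 55.7 ± 52.8 CPM in control and 1551 ± 1966 CPM in DM. Leaving out each library in turn gave 2.74 to 5.19. By library size it was 2.18, and with DESeq2 6.87 (SE 2.01, adjusted p = 0.0092). This comparison of *Col4a2* was also chosen after its values were seen. *Col27a1* was at 5.28 (SE 2.76, adjusted p = 0.40) and *Col16a1* at -5.64 (SE 3.03, adjusted p = 0.40), the smallest p-values among the members. For *Col16a1* the TMM-scaled mean was 6.83 ± 7.92 CPM in control and 0.202 ± 0.293 CPM in DM. Of the fibrillar chains, *Col1a1* was at -0.68 (SE 2.42, adjusted p = 0.89), and without primary control 3 it was at 3.09. *Col1a2* was at 2.61 (SE 2.82, adjusted p = 0.62) and *Col3a1* at 1.15 (SE 2.84, adjusted p = 0.84). Without primary DM 1, which held 217214 of its counts, *Col1a2* was at 0.75, and without primary control 3 *Col3a1* was at 2.61.

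The median log2 fold change of the tested members with DM was 0.33 in primordial follicles, against 0.13 over all genes, with 12 of 21 above 0 against 52.0% of all genes. In primary follicles it was 1.42 against 0.31, with 13 of 20 above 0 against 52.6%. Scaling by library size moved the median of all genes to -0.43 and -0.96, and that of the members to -0.29 and 0.34. With DESeq2's size factors the medians were 0.56 for all genes and 0.99 for members in primordial follicles, and 2.04 and 2.13 in primary follicles.

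**Figure D5:**
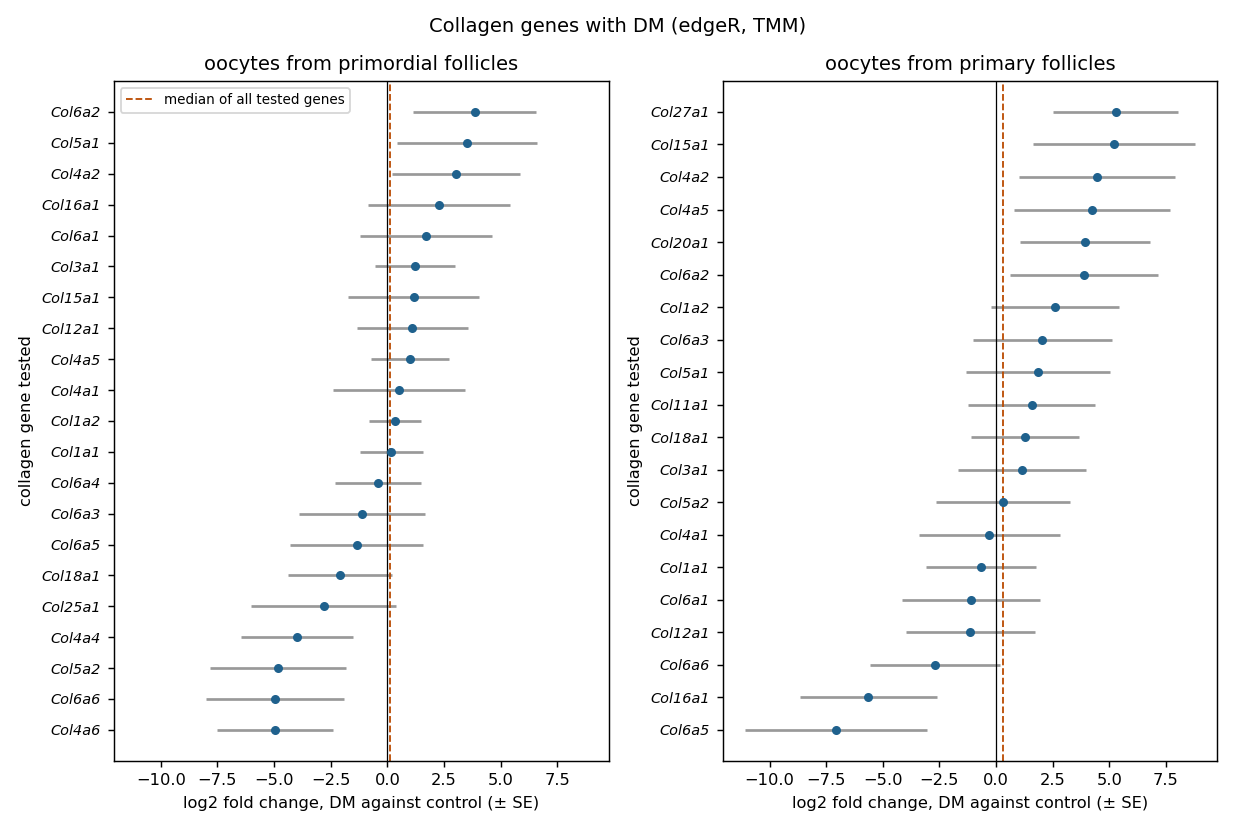
Log2 fold change of each tested collagen gene with DM (edgeR, TMM, point) and its approximate standard error (bar) in primordial (left, 21 genes) and primary follicles (right, 20 genes), with the median of all tested genes as a dashed line. *Col4a2*, picked after its values were seen, lies right of 0 in both panels, at 3.03 and 4.46, and no gene had an adjusted p under 0.05.

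Primary and primordial follicles were compared within each treatment, using the same libraries as the DM comparisons. Among controls 19 collagen genes were tested. None had an adjusted p under 0.05 in edgeR (0% of 6726 genes did). DESeq2 called none of the 11 members to which it gave an adjusted p, against 5.72% of the 5120 genes given one. *Col6a5* had an unadjusted p under 0.05, 1 of 19 against 6.44% of all genes. On the TMM scale *Col4a4* alone did not overlap between stages, 1 of 19 against 9.44%. On the library-size scale *Col1a2*, *Col4a4* and *Col18a1* were lower in primary follicles without overlap, against 9.69% of all genes, and with DESeq2's size factors *Col4a1* and *Col4a2* were higher, against 8.52%. *Col6a5* was at 5.22 on the log2 scale (SE 2.63, adjusted p = 0.75) and at -1.80 without primary control 3, the library with 21210 of its counts. *Col4a4* was at -5.48 (SE 2.85, adjusted p = 0.75), lower in primary follicles, and at -3.16 without primordial control 1.

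Among DM libraries 17 collagen genes were tested. None had an adjusted p under 0.05 in edgeR (0% of 4331 genes did). *Col16a1* had an unadjusted p under 0.05, 1 of 17 against 17.2% of all genes. It was at -8.39 (SE 3.71, adjusted p = 0.29), lower in primary follicles, with a TMM-scaled mean of 53.5 ± 59.5 CPM in primordial DM. DESeq2 called *Col16a1* (-6.97, adjusted p = 0.021) and *Col7a1*, 2 of 17 members given an adjusted p, against 24.5% of the 4048 genes given one. *Col1a1*, *Col4a1* and *Col12a1* were higher in the 3 primary libraries without overlap on the TMM scale and *Col16a1* was lower, 4 of 17 against 16.5% of all genes. On the library-size scale *Col16a1* was lower and none was higher, against 18.5%. With DESeq2's size factors *Col1a1*, *Col3a1*, *Col4a1*, *Col4a2* and *Col12a1* were higher and none was lower, against 16.8%. *Col18a1*, with the next smallest p, was at 3.33 (SE 2.41, adjusted p = 0.43), and at -0.03 without primary DM 2.

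The median member stood at -0.34 in the control comparison, against -0.31 over all genes, and at 1.97 against 0.35 in the DM comparison, where 14 of 17 members and 53.3% of all genes were above 0. By library size these medians were -0.28 against -0.50 and 1.01 against -0.96. With DESeq2's size factors they were 1.75 against -0.03 and 3.05 against 2.04.

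Whether the DM effect differed between stages was tested as an interaction over all 12 libraries. Of 25 collagen genes tested, none had an adjusted p under 0.05 in edgeR (0% of 8500 genes did). *Col8a1* and *Col4a6* had an unadjusted p under 0.05, 2 of 25 against 18.9% of all genes. DESeq2 called *Col4a6*, 1 of 17 members given an adjusted p, against 11.5% of the 5111 genes given one. *Col8a1* was at -14.39 (SE 4.99, adjusted p = 0.13) and at -3.18 without primary control 3. All 3 primordial controls were at 0 for this gene, so its value depends on the prior count. *Col4a6* was at 8.31 (SE 4.19, adjusted p = 0.26), from counts of 0 to 211, and at 5.20 without primary DM 3. For *Col4a2* the interaction was 1.73 (SE 3.41, adjusted p = 0.81), and it was at -0.17 by library size and -0.33 without primary DM 2.

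Some rare genes had reads in 1 group and none in the group compared. *Col8a1* was at least 2118-fold higher in primary than in primordial control when each primordial library was set to 3 counts, and without primary control 3 this bound was 0.627, which gives no direction. *Col13a1* was at least 311-fold higher in primordial DM than in primordial control (1.75 without 1 library) and *Col11a2* at least 145.7-fold lower (3.26 without 1 library). These bounds cover counting error only and rest on few libraries.

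Genes that make, modify, bind and cut collagen were read from lists. Of 27 biosynthesis genes, 4 passed 3 counts in all 12 libraries and *Pcolce2*, *Adamts3* and *Loxl4* in none. *Serpinh1*, the collagen chaperone HSP47, led with 798 to 55963 counts, lowest in primary DM 3. *Bmp1*, a protease that trims procollagen, had 6 to 23937 counts and was at 17, 40 and 6 in primary control 3, primary DM 1 and primary DM 3. Of 17 basement membrane partners, 6 passed in all libraries, led by the laminin chain *Lamb1* (4441 to 43920 counts) and *Sparc*, a collagen-binding glycoprotein (3907 to 30971 counts). Of 12 collagen receptors and proteases, 3 passed in all libraries, led by *Mmp14*, a membrane-bound collagenase (29 to 79028 counts), and the integrin chain *Itgb1* (24 to 54245 counts).

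In none of the 5 comparisons did a gene of these lists have an adjusted p under 0.05 (edgeR). At an unadjusted p under 0.05 with DM in primordial follicles stood *Lama4* (higher), and in primary follicles *Plod1* (lower) and *Itga1* (higher), 1 of 32 and 2 of 25 list genes tested, against 7.33% and 12.2% of all genes. These 3 were named after their values were seen. With DM in primordial follicles, the median log2 fold change was 0.71 over 15 biosynthesis genes and 0.68 over 13 basement membrane partners tested. It was 2.69 over only 4 receptor and protease genes tested, against 0.13 over all genes. In primary follicles the medians were 1.66 over 10, -0.18 over 10 and -0.56 over 5 genes in the same order of lists, against 0.31 over all genes.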

How the data were processed

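The authors deposited a table of raw read counts per gene for the 12 libraries, with no normalization. Reads had been trimmed with Trim Galore, aligned to mm10 and counted with featureCounts, and the aligner is TopHat2 in the study's methods and STAR in the submitters' processing notes. Both TruSeq RNA Access and Smart-seq II are named for library preparation. Amplified RNA of few fixed cells can lose a gene from a library by chance, which bears on rare members and may bear on others. This was not tested. The labels describe the material as in vivo, whereas the methods describe cultured ovaries.

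Of 55401 gene identifiers, 55141 had a symbol in a reference list of gene names. GENCODE M21 (GRCm38) gave gene types, coordinates and exon lengths. Counts were tested in R 4.3.3 with edgeR 4.0.16 (filterByExpr, TMM, glmQLFit and glmQLFTest) on the libraries compared, with Benjamini-Hochberg adjustment over all genes tested and a threshold of 0.05, and with DESeq2 1.42.0 as an alternative. This edgeR test gives no standard error. The SE given with its fold changes is the absolute log2 fold change divided by the square root of the F value, an approximation. The scripts were tested on simulated data. No pair of libraries of the same group agreed within sampling noise (smallest chi-square per degree of freedom 1588). Pairs across groups were not compared in this way. The study describes the libraries of a group as biologically independent, and the labels tie none to an animal. The p-values measure the spread between these libraries, part of which may be technical.

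The members and lists were chosen with earlier results of these data known. Named were members above 3 counts in at least 6 libraries, the 2 members with the smallest p in each test, the highest member of each class not yet named, and the 2 highest genes of each partner list. The comparisons of *Col1a1*, *Col1a2*, *Col3a1* and *Col4a2* with DM, and *Col13a1*, *Col11a2* and other rare genes, were added after their values were seen. *Col21a1* was not analysed here. Other settings were library-size scaling, DESeq2's size factors, 2 other filters on low counts, all libraries in 1 fit, a replicate block and leaving out each library.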

Additional observations from a re-analysis of the deposited data

How the results depend on the processing

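With edgeR, no collagen gene had an adjusted p under 0.05 in any of the 5 comparisons under TMM, DESeq2's size factors or library size, without the filter, with a minimum of 10 counts in each library, or in a fit of all libraries, and leaving out each library in turn gave 0 to 0 calls in each comparison. DESeq2 called 1 (DM, primordial), 3 (DM, primary), 0 (stage, control), 2 (stage, DM) and 1 (interaction). At an unadjusted p under 0.05 the counts were 0, 0, 1, 1 and 2 in the same order. With the replicate number as a block the count was again 0 in every comparison. Same-numbered libraries did not deviate together (correlations of -0.038 to 0.031), so the numbers were not taken to pair the libraries.

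The mean summed collagen CPM was 4397 (primordial control) and 8031 (primary DM) by library size, and 1423 (primordial control), 39580 (primary control) and 50830 (primary DM) with DESeq2's size factors. On the TMM scale, leaving out 1 library moved the means to 1899 to 2886, 3254 to 4706, 1826 to 16870 and 13670 to 21200 in primordial control, primordial DM, primary control and primary DM.

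Library-size scaling, DESeq2's size factors or leaving out 1 library turned the sign of the log2 fold change for 7 of 21 (DM, primordial), 13 of 20 (DM, primary), 10 of 19 (stage, control), 10 of 17 (stage, DM) and 20 of 25 (interaction) members tested. Among the named comparisons, *Col6a5* between control stages was at -1.56 with the block, and leaving out 1 library gave -1.80 (without primary control 3) to 6.81. *Col18a1* between DM stages ran from -0.035 (without primary DM 2) to 5.37. *Col1a1* with DM in primordial follicles was at -0.41 by library size and -0.072 with a minimum of 10 counts, and leaving out 1 library gave -0.36 (without control 3), -0.21 (without DM 2) and up to 1.03. *Col1a2* there was at -0.29 by library size and -0.10 with a minimum of 10 counts, and ran from -0.34 (without DM 3) to 0.80. *Col1a1* with DM in primary follicles was at 1.91 with the block and ran from -1.32 to 3.09 (without control 3). The cause was not tested. The 7 calls made by DESeq2 only were *Col27a1* (DM, primordial), *Col27a1*, *Col4a2* and *Col7a1* (DM, primary), *Col16a1* and *Col7a1* (stage, DM) and *Col4a6* (interaction).

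The effect of depth was not tested. Members above 3 counts in all 12 libraries fell as low as 8 counts in a library, and 26 members were at or under 3 counts in most libraries. The median standard error over all genes was 2.82 to 4.14 log2 units.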
